A study of Mus musculus with 8 samples.

Results

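The genes described here surround ROSA26 on mouse chromosome 6, the locus that carries the human *MYCN* transgene of the LSL-*MYCN* mouse. A list of 39 genes was used, running from Setmar on the left of ROSA26 to Atg7 on its right, with Thumpd3 and Setd5 as the immediate neighbors of the locus. All 39 were measured, by 74 probe sets that each name a single gene, among 18194 genes and 34958 such probe sets in all. Of the 39 genes, 10 lie left and 29 right of ROSA26. Expression was profiled on Affymetrix arrays in 8 untreated tumors, with 1 array each. Tumors 7 and 8 grew at the superior cervical ganglion, which belongs to the sympathetic chain in the neck, and tumors 1 to 6 at the adrenal. Every tumor carried the same alleles: a *MYCN* cDNA with an IRES-luciferase reporter behind the CAG promoter and a loxP-flanked stop cassette, and the Cre recombinase of the Dbh-iCre line. Dbh regulatory elements restrict that Cre to noradrenergic cells, so that *MYCN* is meant to be switched on in those cells only. Age, strain and whether each tumor came from its own mouse are not stated by the labels, so p-values measure the spread between these tumors. Normal adrenals and DNA copy number were not analysed here. In some tumors of this model the paper reports a focal gain of DNA that includes ROSA26, with more copies of the transgene. The labels do not say if any of the 8 tumors here carried it, and its part in the results was not tested.

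ROSA26 was found in a gene trap screen and encodes a non-coding RNA that is made in nearly all tissues. The genes around it share no single pathway. They include parts of protein complexes (the Arp2/3 and WAVE complexes of actin assembly, the ER membrane complex, histone acetyltransferase complexes), DNA repair genes such as Fancd2, Ogg1 and Rad18, the tumor suppressor gene Vhl, and genes restricted to fat, stomach or nerve cells. Their common feature in this model is position on the chromosome that bears the driver.

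All levels are deposited log2 values, on which a difference of 1 is a 2-fold change. Where a gene had several probe sets, the brightest on average stood for it. It was tested if above log2 5 in at least 2 tumors, and called detected in a tumor if above the 95th percentile of 86 probe sets on that array for sensory receptor genes of smell and taste (6.71 to 7.21). With these rules 38 of the 39 genes were tested, 28 passed the limit of detection in every tumor and 5 did so nowhere.

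Tumor 7 stood apart from the others. The paper describes the tumors of this model as neuroblastomas, but tumor 7 was low for most genes that define noradrenergic cells. Of 9 measured noradrenergic markers, all 9 were lowest in tumor 7, and 7 lay at least 1 below the mean of the other 7 tumors. Dbh, the noradrenaline-synthesizing enzyme whose regulatory elements drive the Cre, was at 9.07 in tumor 7 and 13.13 in tumor 8, against 12.53 to 13.54 in the adrenal tumors. Gata3, which directs sympathetic neuron development, was at 5.22 in tumor 7, under the limit of detection, and at 11.54 in tumor 8, against 11.12 to 11.80 in the adrenal tumors. Hand2, also of the sympathetic lineage, was at 12.58 in tumor 7 and 13.49 in tumor 8, against 13.33 to 13.74, and Isl1 at 13.48 and 13.78, against 13.69 to 14.05. The mean level of 6 skeletal muscle markers was 7.74 in tumor 7 and 7.06 in tumor 8, against 5.77 to 6.16 in the adrenal tumors, and 5 of the 6 were detected in tumor 7. In bulk tissue, fewer cells of a type and less RNA per cell cannot be told apart. In tumor 6 all 6 liver markers were detected and highest, as were the 2 measured adipocyte markers, and 6 of 7 adrenal cortex markers were highest. As a sign of RNA quality, the gap between the 3′ and 5′ Gapdh probe sets was 5.51 in tumor 1 and 0.47 to 1.57 elsewhere. The part of these features in the results was not tested.

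Sequences are shown for 6 genes, to let the start regions of the immediate neighbors of ROSA26 and of a gene at the right end of the affected stretch be read beside those of genes within it that did not move along. They are RefSeq promoter windows of build GRCm38.p6, 300 bases each, from 250 before to 50 after the start of the transcript, printed 5′ to 3′ on the gene's own strand with every CG dinucleotide in capitals. Thumpd3 (chr6:113046052-113046351, plus strand) and Setd5 (chr6:113104685-113104984, plus strand) adjoin the locus. Jagn1 (chr6:113442267-113442566, plus strand) and Vhl (chr6:113623744-113624043, plus strand) lie further right and stood high in tumor 7. Il17re (chr6:113458521-113458820, plus strand) and Cidec (chr6:113435711-113436010, minus strand) lie within the same stretch and did not.
Thumpd3: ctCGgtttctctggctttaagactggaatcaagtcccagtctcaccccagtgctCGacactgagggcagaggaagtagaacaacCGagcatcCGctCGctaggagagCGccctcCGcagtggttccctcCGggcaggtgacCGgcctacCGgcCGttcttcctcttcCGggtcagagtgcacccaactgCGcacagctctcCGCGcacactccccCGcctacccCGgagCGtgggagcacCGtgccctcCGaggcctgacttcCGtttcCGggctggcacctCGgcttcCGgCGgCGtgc
Setd5: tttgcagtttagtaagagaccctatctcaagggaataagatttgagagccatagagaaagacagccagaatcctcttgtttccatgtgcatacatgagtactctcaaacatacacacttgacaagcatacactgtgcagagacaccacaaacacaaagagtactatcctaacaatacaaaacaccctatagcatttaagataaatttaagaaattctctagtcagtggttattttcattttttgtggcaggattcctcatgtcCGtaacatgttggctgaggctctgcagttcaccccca
Jagn1: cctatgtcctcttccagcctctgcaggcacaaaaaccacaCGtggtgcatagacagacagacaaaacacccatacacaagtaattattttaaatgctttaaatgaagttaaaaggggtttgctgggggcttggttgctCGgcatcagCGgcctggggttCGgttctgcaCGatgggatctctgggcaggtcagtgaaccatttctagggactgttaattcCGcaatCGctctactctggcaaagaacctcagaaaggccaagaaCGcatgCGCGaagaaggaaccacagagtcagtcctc
Vhl: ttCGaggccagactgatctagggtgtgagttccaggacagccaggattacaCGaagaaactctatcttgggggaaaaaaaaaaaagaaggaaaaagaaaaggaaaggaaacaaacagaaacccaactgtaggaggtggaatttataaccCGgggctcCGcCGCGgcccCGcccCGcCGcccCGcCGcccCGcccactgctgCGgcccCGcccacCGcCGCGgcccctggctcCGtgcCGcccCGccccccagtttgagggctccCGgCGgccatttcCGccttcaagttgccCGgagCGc
Il17re: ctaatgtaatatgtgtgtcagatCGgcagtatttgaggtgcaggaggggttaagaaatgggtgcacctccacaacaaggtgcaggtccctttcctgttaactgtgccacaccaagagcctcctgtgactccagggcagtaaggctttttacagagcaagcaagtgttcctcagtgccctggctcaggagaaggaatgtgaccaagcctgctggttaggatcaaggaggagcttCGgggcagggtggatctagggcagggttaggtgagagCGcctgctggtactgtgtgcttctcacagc
Cidec: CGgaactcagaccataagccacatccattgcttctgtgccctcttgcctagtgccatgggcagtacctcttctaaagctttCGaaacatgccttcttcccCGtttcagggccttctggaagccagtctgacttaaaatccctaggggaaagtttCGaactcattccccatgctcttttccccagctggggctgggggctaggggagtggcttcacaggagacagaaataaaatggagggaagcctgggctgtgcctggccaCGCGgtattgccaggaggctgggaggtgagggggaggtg
The Thumpd3 window held 26 CG dinucleotides, the Setd5 window 1, the Jagn1 window 10 and the Vhl window 25, whereas Il17re had 3 and Cidec 6. The windows follow annotated transcript starts, and whether transcription begins there in these tumors was not tested. For Setd5 this is in doubt: the annotated start directly follows a pyrimidine-rich run ending in AG, as at the end of an intron. Its window may thus lie inside the gene, and its CG count may not describe a promoter. Over all 32851 windows of the table the median was 7, with quartiles of 3 and 20. The motif CACGTG, the E-box that MYC proteins bind and a palindrome that reads alike on both strands, occurred once in the Jagn1 window and in none of the other 5 printed. Of the 39 genes, 37 matched the table, with 52 windows. The motif was found in 5 of them (9.62%), those of Sumf1, Ssu2, Jagn1, Tatdn2 and Atg7, against 7.15% of all windows. A match is a description of these letters only.

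In 1 of the 8 tumors, tumor 7, a large share of the genes around ROSA26 stood high. Each tumor was set against the mean of the other 7. In tumor 7, 17 of the 38 tested genes lay at least 1 above that mean, where 4.59% of all 16254 tested genes and 32 of the 796 other tested genes of chromosome 6 (4.02%) did. The median of the 38 differences was 0.64 in tumor 7, while it was -0.07 over all genes and -0.16 over all tested genes of chromosome 6. Only Srgap3 lay at least 1 below (5.91% of all genes did). Of the 39 genes, 21 had their highest level in tumor 7, 18 of them from Thumpd3 to Vhl, and 10 had their lowest there. The share of all genes highest or lowest in tumor 7 was not counted, so these counts have no background beside them. With 1 array per tumor these differences have no replicate check and no test.

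The other 7 tumors showed no such pattern. The median difference of the listed genes was -0.25 in ganglion tumor 8 and ran from -0.35 in tumor 4 to 0.02 in tumor 2 among the adrenal tumors. With tumor 7 left out of the means it was -0.10 for tumor 8 and lay between -0.26 (tumor 4) and 0.17 (tumor 5) for the adrenal ones. No listed gene of tumor 8 lay at least 1 above the mean of the rest (1.05% of all genes did) and none at least 1 below (0.468%). Tumor 2 had 2 such genes above, Grm7 and Bhlhe40 (1.76% of all genes), and tumor 5 also had 2, Grm7 and Srgap3 (1.4%). Tumors 1, 3, 4 and 6 had none above (1.62%, 0.732%, 0.517% and 2.22% of all genes). Below by at least 1 were Setd5 in tumor 1 (2.04% of all genes), Prrt3 and Fancd2 in tumor 2 (0.64%), Bhlhe40 in tumor 3 (1.54%) and Jagn1 in tumor 4 (1.26%), and none in tumors 5 (2.07%) and 6 (0.203%). Since tumor 7 enters the mean that each other tumor is set against, it pulls their differences down for the genes that were high in it.

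**Figure D1:**
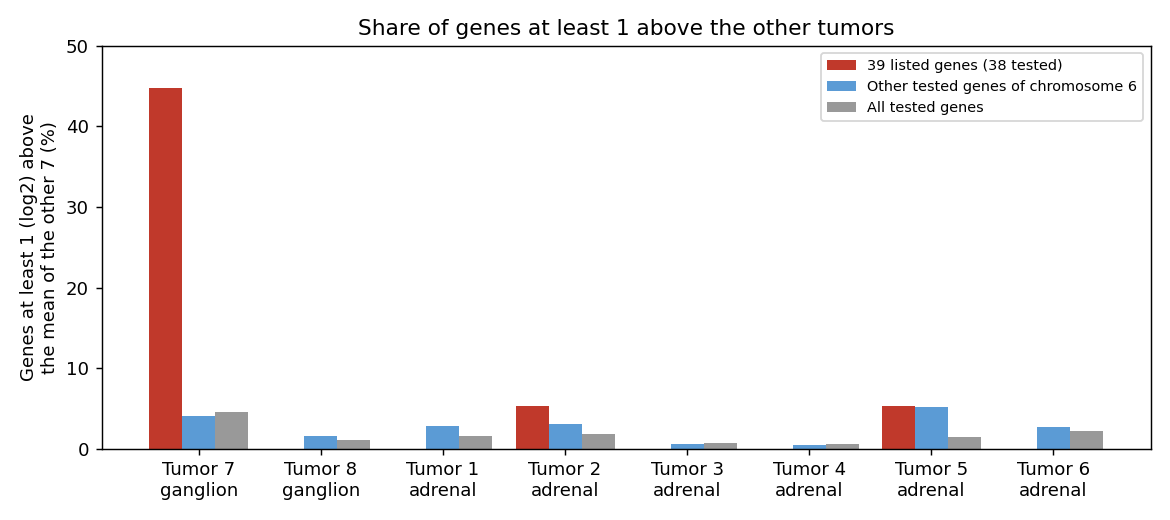
Share of genes, in percent, at least 1 (log2) above the mean of the other 7 tumors, for each tumor on the horizontal axis; bars stand for the listed genes around ROSA26, the other tested genes of chromosome 6 and all tested genes. In tumor 7 the listed genes reach 44.7%, beside 4.02% and 4.59%.

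In their order along the chromosome, the 17 genes formed 1 stretch, from Thumpd3 on the left of ROSA26 to Vhl on its right. The ends of this stretch were set after the values were seen. It holds 22 of the listed genes, of which 21 were tested, and 18 had their highest level in tumor 7. The median difference of the 17 genes was 2.46 (5.48-fold), and it was the same with levels under the limit of detection raised to that limit. In 14 of the 17 the gene was detected in all of the other 7 tumors, and there the difference ran from 1.57 for Rpusd3 to 3.53 for Fancd2. Ttll3 and Prrt3 were detected in none of the other 7 and Camk1 in 3 of them, so that their differences are given below as bounds or with that limit. Of the 5 genes of the stretch not among the 17, Ogg1 came closest at 0.73. On the left the stretch ended sharply: Thumpd3 lay 2.47 above the mean of the other tumors and the next listed gene, Srgap3, lay 2.01 below it. On the right it ended between Vhl at 2.61 and Irak2 at -0.29. None of the 9 genes from Setmar to Srgap3 and none of the 8 from Irak2 to Atg7 lay at least 1 above, and their medians in tumor 7 were -0.42 and -0.32. The nearest of them to that size was Lmcd1, at 0.90. It was under the limit of detection in all of the other 7 tumors, and with those at the limit its difference was -0.17.

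**Figure D2:**
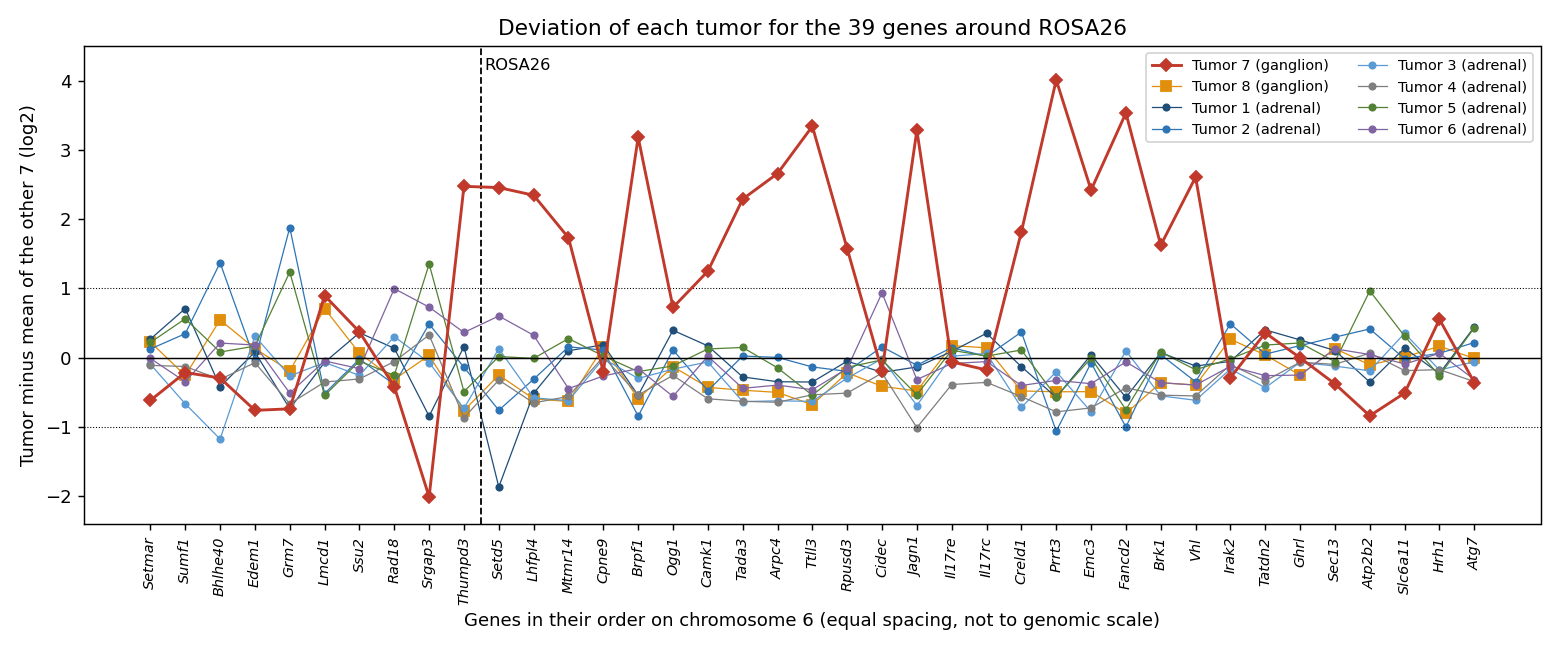
Difference of each tumor from the mean of the other 7 (log2, vertical axis) for the 39 genes in chromosomal order (horizontal axis, equal spacing); each line is 1 tumor, the dashed line marks ROSA26 and the dotted lines mark 1 and -1. The line of tumor 7 leaves the others at Thumpd3, returns at Irak2, and dips to the others at Cpne9, Cidec, Il17re and Il17rc.

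Among the genes next to the insertion, the ROSA26 transcript itself (Gt(ROSA)26Sor, not on the list) was at 12.33 in tumor 7 and 10.46 in tumor 8, against a lowest, median and highest adrenal level of 9.36, 10.77 and 11.47. It was highest in tumor 7, by 1.71 over the mean of the others, and tumor 3 lay 1.70 below the mean of its others. Thumpd3, a tRNA methyltransferase gene in human cells, was at 12.76 in tumor 7 and 9.93 in tumor 8, against 9.84, 10.32 and 10.91 in the adrenal tumors. Tumor 7 was thus 5.55-fold above the mean of the other 7, whose SD was 0.43. Setd5, which encodes a SET domain protein of chromatin and is linked to intellectual disability in humans, was at 13.00 in tumor 7 and 10.64 in tumor 8, against 9.22, 10.72 and 11.38 in the adrenal tumors. Tumor 7 was the highest, and the lowest value was that of tumor 1. Lhfpl4, needed for GABA receptors at inhibitory synapses, was at 13.40 in tumor 7 and 10.83 in tumor 8, against 10.78, 10.99 and 11.63 in the adrenal tumors. Mtmr14, a phosphoinositide phosphatase gene, was at 11.05 and 8.98 in tumors 7 and 8, against 8.99, 9.38 and 9.78. For all of these, tumor 7 lay above the range of the other 7, and tumor 8 lay within the adrenal range or, for Mtmr14, just under it.

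The chromatin genes of the stretch stood high in tumor 7 as well. Brpf1, the scaffold of a MYST-family histone acetyltransferase complex, was at 12.92 in tumor 7 and 9.62 in tumor 8, against a lowest and median of 9.40 and 9.77 in the adrenal tumors. Over the mean of the other 7 (9.74, SD 0.21) tumor 7 was 9.08-fold higher. Tada3, an adaptor of the GCN5 and PCAF acetyltransferase complexes, was at 11.70 and 9.28 in tumors 7 and 8, against 9.14, 9.38 and 9.82, or 4.89-fold. The promoter windows of Tada3 and its neighbor Arpc4, which are read in opposite directions, share 226 bases, and both genes were highest in tumor 7.

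Of the cytoskeletal genes, Arpc4, a subunit of the Arp2/3 complex that nucleates branched actin, was at 13.59 in tumor 7 and 10.83 in tumor 8, against 10.70, 10.94 and 11.27 in the adrenal tumors. Brk1, a small subunit of the WAVE complex that activates Arp2/3, was at 14.38 and 12.64 in tumors 7 and 8, against 12.48, 12.82 and 13.03. The excess of tumor 7 over the mean of the other 7 was 6.31-fold for Arpc4 and 3.08-fold for Brk1. Ttll3, which adds glycine to tubulin, was detected in tumor 7 alone, at 9.81, and read 6.29 in tumor 8 and 6.33, 6.45 and 6.77 in the adrenal tumors. Against the limit of detection of the other arrays, tumor 7 was at least 7.32-fold higher. Camk1, a calcium/calmodulin-dependent kinase gene, was at 8.24 and 6.77 in tumors 7 and 8, against 6.63, 7.13 and 7.30. It was under the limit in 4 of the other 7 tumors, and with those at the limit tumor 7 was 2.24-fold higher.

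Genes of the endoplasmic reticulum and of membranes lay in the middle and right of the stretch. Jagn1, an ER protein gene needed for neutrophil function, was at 13.96 in tumor 7 and 10.67 in tumor 8, against 10.20, 10.71 and 10.99 in the adrenal tumors, 9.72-fold over the mean of the other 7. Emc3, an insertase subunit of the ER membrane complex, was at 14.11 and 11.57 in tumors 7 and 8, against 11.31, 11.80 and 12.03. Its probe set is of the type that can read more than 1 transcript. Creld1, linked to heart septum defects in humans, was at 12.05 and 10.04, against 9.83, 10.23 and 10.78. Prrt3, a proline-rich transmembrane protein gene, was detected in tumor 7 alone, at 9.62, and read 5.68 in tumor 8 and 5.18, 5.61 and 5.93 in the adrenal tumors. Against the limit of detection of the other arrays tumor 7 was at least 6.41-fold higher. Rpusd3, a pseudouridine synthase gene of mitochondria, was at 9.55 and 7.98 in tumors 7 and 8, against 7.72, 8.02 and 8.13. In every one of these genes the other ganglion tumor lay inside the adrenal range.

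The stretch also holds genes of DNA repair and oxygen sensing. Fancd2, the central protein of the Fanconi pathway of crosslink repair, was at 11.62 in tumor 7 and 7.83 in tumor 8, against 7.65, 8.09 and 8.62 in the adrenal tumors. The excess of tumor 7 was 11.6-fold over the mean of the other 7. Vhl, which marks the HIF transcription factors for degradation, was at 12.08 and 9.46 in tumors 7 and 8, against 9.26, 9.48 and 9.70, or 6.09-fold. Ogg1, the glycosylase that removes 8-oxoguanine from DNA, was at 8.27 in tumor 7 and 7.53 in tumor 8, against 7.15, 7.52 and 7.99, with tumor 7 highest by a small step. A further Ogg1 probe set read 8.64 in tumor 7 and 6.12 in tumor 8, against 5.91, 6.32 and 6.66, so that the probe sets of this gene differed in size.

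**Figure D3:**
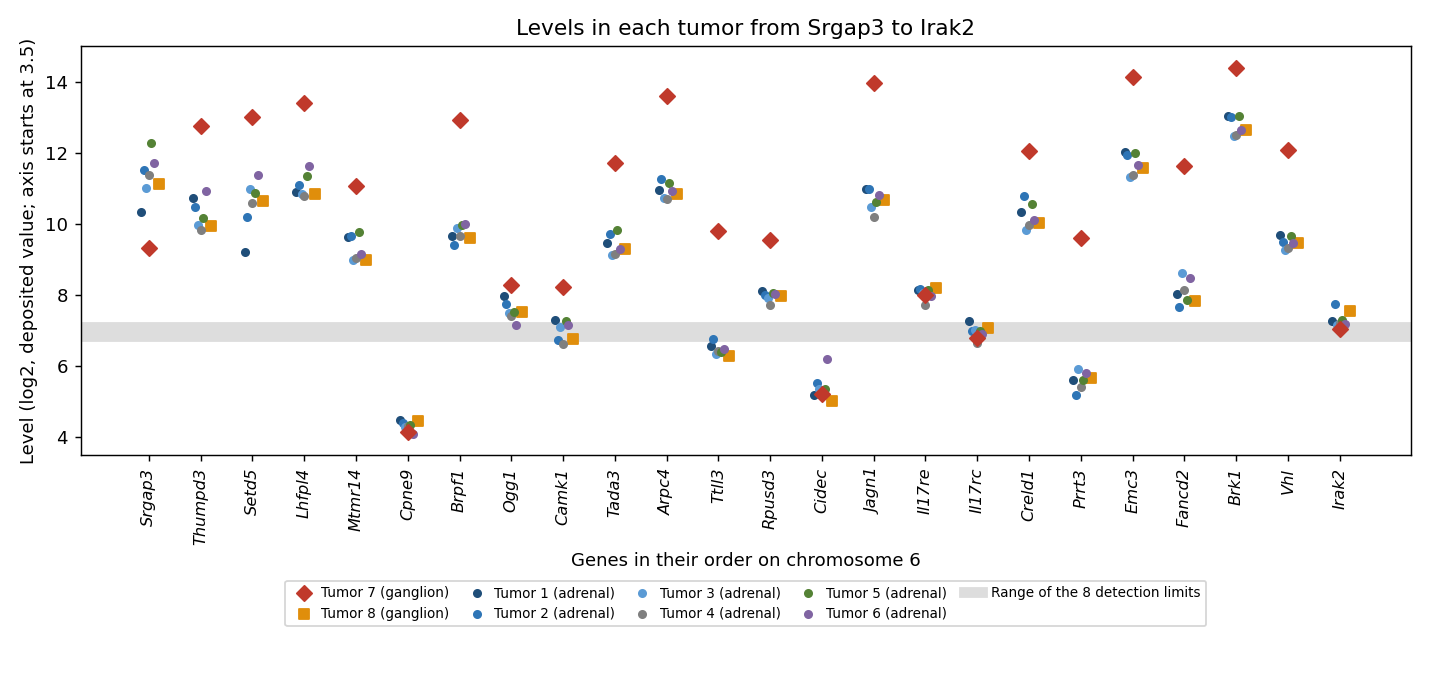
Level of each gene from Srgap3 to Irak2 (deposited log2 value, vertical axis, starting at 3.5) in chromosomal order; each point is 1 tumor, and the gray band spans the limits of detection of the 8 arrays (6.71 to 7.21). Tumor 7 lies above all others for 18 genes between Thumpd3 and Vhl, while Ttll3 and Prrt3 in the other tumors lie under the band.

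Inside the stretch, 4 genes did not stand high in tumor 7. Cpne9, a copine gene, was at 4.14 in tumor 7 and 4.45 in tumor 8, against 4.09 to 4.48 in the adrenal tumors, and was not tested. Cidec, a lipid droplet protein gene of fat cells, was at 5.22 and 5.02, against 5.19 to 6.20, with its highest level in tumor 6. Neither was detected in any tumor. Il17rc, a receptor chain for interleukin-17, was at 6.81 and 7.09, against 6.65 to 7.27, and was detected in 5 tumors. Il17re, the related receptor chain for IL-17C, was detected in all tumors, at 8.00 in tumor 7 and 8.20 in tumor 8, against 7.71, 8.10 and 8.18 in the adrenal tumors. For Il17re, tumor 7 lay within the range of the others at a detected level. Fancd2os, a neighbor of Fancd2, is not on the list and was detected in no tumor (4.59 in tumor 7 and 4.68 in tumor 8, against 4.63 to 5.15).

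The start regions of the 17 genes were mostly rich in CG. Of these genes, 16 had a promoter window, and 13 of them reached 15 or more CG. The highest CG count of each gene had a median of 22.5, from 1 to 27. The count of 1 is that of Setd5, whose window may lie inside the gene. High counts were also common outside the stretch: 9 of the 16 listed genes there with a window had 15 or more, as did 37.1% of all 27025 genes with a window. Among the other 5 genes of the stretch, Ogg1 had 25, Cpne9 11, Cidec and Il17rc 7 each and Il17re 3. The 4 genes that did not stand high thus had windows of lower CG count than most of the 17. The printed Il17re and Cidec sequences show this beside Thumpd3 and Vhl. However, Ttll3 (up to 12) and Jagn1 (up to 13) were high in tumor 7 with fewer than 15, as was Setd5 on its doubtful window. These counts describe the windows and were not tested.

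Left of the stretch, Srgap3, a Slit-Robo GTPase-activating protein gene of neurons, was at 9.32 in tumor 7 and 11.11 in tumor 8, against 10.34, 11.44 and 12.26 in the adrenal tumors. Tumor 7 was the lowest and tumor 5 the highest. Its further probe set was detected in no tumor. Rad18, a ubiquitin ligase of DNA damage tolerance, was at 8.60 and 8.69 in tumors 7 and 8, against 8.63 to 9.84, with tumor 6 on top. Grm7, a metabotropic glutamate receptor gene, was at 8.46 and 8.94, against 8.46, 8.76 and 10.75, with tumors 2 and 5 above the rest by 1.88 and 1.24 over the mean of their others. Bhlhe40, a transcriptional repressor of the circadian clock, was at 8.43 and 9.17, against 7.66, 8.59 and 9.89, highest in tumor 2 and lowest in tumor 3. Edem1, of ER-associated degradation, was at 8.74 in tumor 7 and 9.52 in tumor 8, against 9.34, 9.51 and 9.68. Setmar, a SET domain gene, was at 7.54 and 8.27, against 7.98, 8.13 and 8.31. Both had their lowest level in tumor 7, by 0.76 and 0.62 under the mean of the others, but a further Edem1 probe set, detected in all tumors, read 8.18 in tumor 7, within the 7.70 to 8.80 of the others. Sumf1, which activates sulfatases, was at 9.14 and 9.10, against 8.74, 9.42 and 9.95, with overlapping groups. Lmcd1, a LIM domain gene of muscle, was at 6.76 and 6.6 in tumors 7 and 8, against 5.50 to 5.94 in the adrenal tumors. Ssu2 was at 6.91 and 6.65, against 6.32 to 6.90. Lmcd1 and Ssu2 were each detected in tumor 7 only, close to the limit of 6.72 there, and the skeletal muscle markers given above were also higher in both ganglion tumors; their part was not tested.

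Right of the stretch, from Irak2 to Atg7, all 8 listed genes of tumor 7 lay less than 1 from the mean of the other tumors. Irak2, a kinase of interleukin-1 receptor signaling, was at 7.05 in tumor 7 and 7.54 in tumor 8, against 7.16, 7.24 and 7.73 in the adrenal tumors. Tatdn2, a nuclease gene, was at 9.61 and 9.33, against 8.92, 9.20 and 9.65. Sec13, shared by the COPII coat and the nuclear pore, was at 10.75 and 11.19, against 10.97, 11.10 and 11.34. Tumor 7 was lowest for Irak2 and Sec13 and within the range for Tatdn2. Atp2b2, a plasma membrane calcium pump gene of neurons, was at 8.50 and 9.14, against 8.92, 9.28 and 10.07, and Atg7, the activating enzyme of autophagy conjugation, at 8.19 and 8.49, against 8.20, 8.57 and 8.89. Ghrl (the hormone ghrelin), Slc6a11 (a GABA transporter) and Hrh1 (a histamine receptor) were detected in no tumor, with tumor 7 at 5.73, 5.60 and 6.27. Over the 10 measured genes beyond Atg7 and the 10 before Setmar, no gene lay at least 1 above in tumor 7. Its lowest values there were -2.71 for Cntn4, a neural adhesion gene, and -1.31 for Syn2, a synaptic vesicle gene.

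The stretch was seen by most of its probe sets. Of 42 probe sets of the 22 genes, 31 lay at least 1 above in tumor 7, and none did so in any other tumor. Left and right of it, 0 of 17 and 0 of 15 did. The share of all probe sets past that size in tumor 7 was not counted, and among all tested genes it was 4.59%. Since the ends of the stretch were set with these values seen, the counts are a description and no independent check. Among probe sets detected in all tumors, those of Setd5 gave 2.46 and 2.46, those of Arpc4 2.66 and 2.94, those of Fancd2 3.53 and 3.39 and those of Brk1 1.62 and 2.29. Further probe sets of Setd5, Vhl and Fancd2 were under the limit in most or all of the other tumors, so their sizes are not set beside these. The last Fancd2 probe set (0.03) and the further one of Tada3 (0.49) were detected in no tumor. Counting a gene if any of its probe sets reached the size added Ogg1, for 18 genes.

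**Figure D4:**
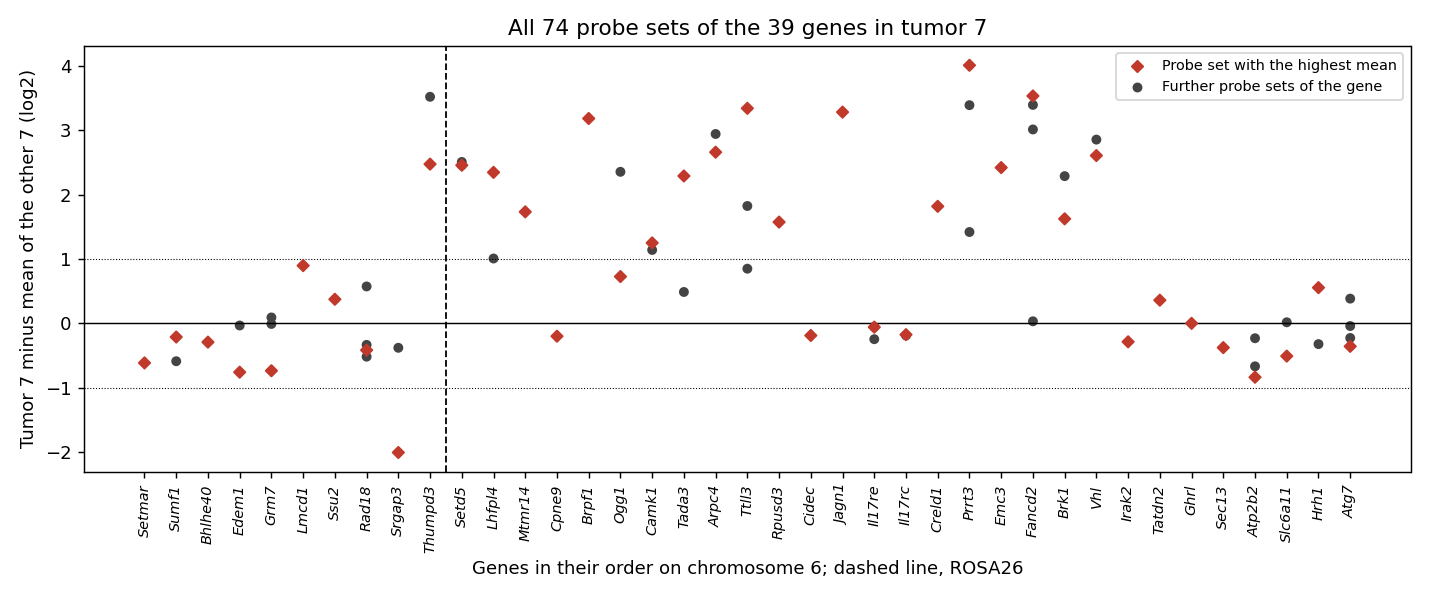
Difference of tumor 7 from the mean of the other 7 (log2, vertical axis) for all 74 probe sets of the 39 genes in chromosomal order; diamonds are the probe sets with the highest mean and circles the further ones. Right of the dashed line at ROSA26 and up to Vhl, most probe sets lie above the dotted line at 1, and beyond Vhl none does.

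No comparable run was found elsewhere in tumor 7. Over all tested genes in chromosomal order, the longest run of neighbors at least 1 above had 6 genes, from Thumpd3 to Brpf1, and outside chromosome 6 it had 2. In the other tumors the longest runs had 2 to 4 genes, with 4 in tumor 6 at liver gene clusters such as that of Serpina10 and Serpina11. Of the 23 neighboring tested genes from Thumpd3 to Vhl, the ROSA26 transcript and Fancd2os included, 18 lay at least 1 above in tumor 7. The next window of that size in tumor 7, on chromosome 11, had 8, and the highest window of any other tumor had 7. These are descriptions along the genome, and neighboring genes are not independent.

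With tumor 7 left out of the means, the 17 genes lay close together in the remaining tumors. Their median difference from the mean of the rest was -0.15 in ganglion tumor 8 and ran from -0.31 in tumor 4 to 0.26 in tumor 5 among the adrenal tumors. No gene of the 17 was at least 1 above in any of these 7 tumors, and 1 was at least 1 below, Setd5 in tumor 1 (-1.55), the tumor with the large Gapdh difference. The further Setd5 probe sets of tumor 1 read 9.62 and 7.08, both near or at the top of the adrenal levels.

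The mouse Mycn probe sets did not follow ROSA26. The one with the highest mean was at 7.96 in tumor 7 and 12.74 in tumor 8, against 11.59, 11.89 and 12.55 in the adrenal tumors. The next was at 7.04 and 9.51, against 6.86 to 9.44, and the last at 8.19 and 8.11, against 8.03 to 8.22. Tumor 7 was thus lowest on the first. On the next it differed from the mean of the others by -1.57, and only tumor 1, with the large Gapdh difference, read lower (6.86). On the last, tumor 7 lay within the range of the others. The transgene is a human cDNA that, by the paper, has no regulatory untranslated regions. None of the sources says if it hybridizes to these mouse probe sets. Their levels are therefore not read as levels of the transgene at ROSA26.

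Genes elsewhere in the genome that work with the listed ones did not stand high together with them in tumor 7. Over 12 lists of such partners, 82 genes were measured, with a median difference in tumor 7 of -0.13, from -1.99 to 2.44. Of the 82, 3 lay at least 1 above (4.59% of all genes did) and 4 at least 1 below (5.91%). These counts are close to the shares over all genes. Of the 5 measured partners of Arpc4 in the Arp2/3 complex, the 7 of Brk1 in the WAVE complex, the 8 of Emc3 in the ER membrane complex, the 9 Fanconi genes beside Fancd2, the 4 VHL ligase partners of Vhl and the 5 partners of Brpf1, none lay 1 or more above or below. Arpc2 differed by 0.09 in tumor 7 and Arpc1a by -0.44, beside 2.66 for Arpc4. Fanca and Fanci differed by 0.10 and 0.02, beside 3.53 for Fancd2, and the elongin genes Elob and Eloc by -0.60 and -0.43, beside 2.61 for Vhl. The exception was the acetyltransferase module of Tada3, in which Tada2a and Kat2a (GCN5) lay 1.42 and 1.17 above, while Kat2b (PCAF) lay 0.81 below. Kat2a was at 11.73 in tumor 7 and 10.44 in tumor 8, against 10.22 to 10.94 in the adrenal tumors. The third gene at least 1 above was Il17ra, the partner of Il17rc, at 9.24 in tumor 7 and 6.83 in tumor 8, against 6.47 to 7.40, and the 4 below were Sec24d, Neil3, Il17rd and Traf3ip2.

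**Figure D5:**
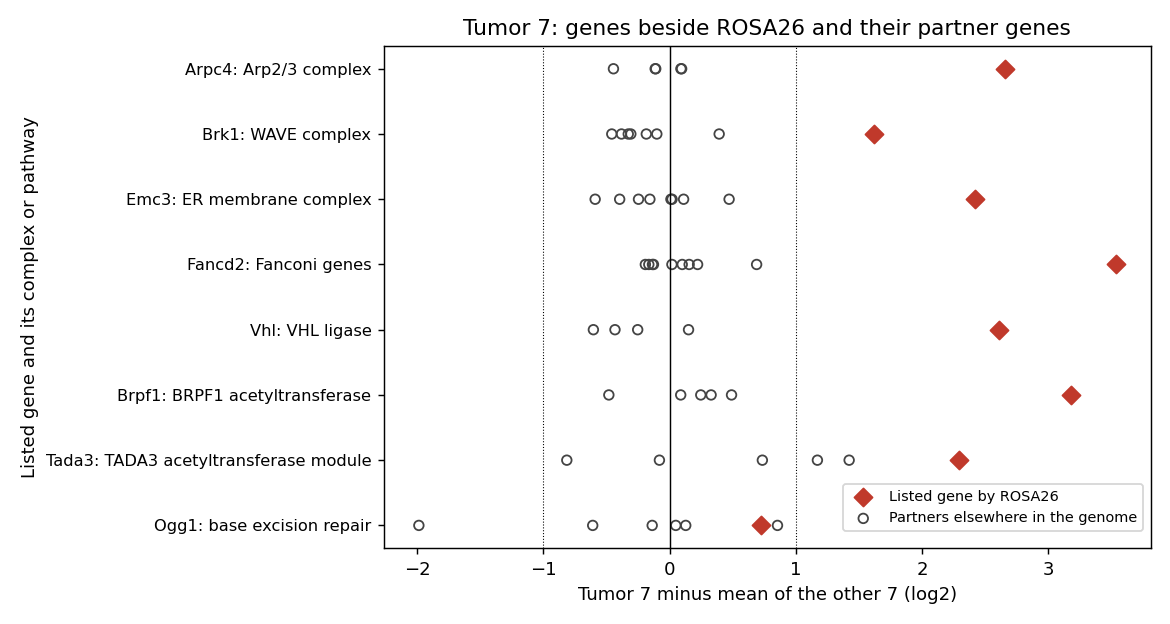
Difference of tumor 7 from the mean of the other 7 (log2, horizontal axis) for 8 listed genes (diamonds) and their partner genes elsewhere in the genome (open circles), 1 row per complex or pathway; dotted lines mark 1 and -1. Each listed gene but Ogg1 lies to the right of all its partners.

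The sites were compared with limma over all probe sets. Between ganglion and adrenal tumors, 0 of the 68 tested probe sets of the listed genes passed an adjusted p of 0.05, where 5 of 30285 (0.0165%) did over all genes. At an unadjusted p of 0.05, 10 of the 68 passed, all with the higher mean in the ganglion tumors, beside 4.0% of all probe sets. Besides Lmcd1 and Hrh1, these were probe sets of Arpc4, Brk1, Fancd2, Jagn1, Prrt3, Rpusd3 and Vhl. In all of the latter tumor 8 lay inside the adrenal range, so the higher mean came from tumor 7. The lowest adjusted p was 0.845, for Lmcd1, which was not detected in tumor 8 or in any adrenal tumor, so that no size is given for it. Vhl was 1.29 ± 0.54 higher (SE, limma adjusted p = 0.99), since its high level was that of tumor 7 and not of tumor 8.

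The result of the site comparison depended on which ganglion tumor was in it. Without tumor 8, tumor 7 was set against the 6 adrenal tumors, the lone tumor being assumed to vary like the others. Then 28 of the 68 probe sets passed (41.2%), all higher in tumor 7, where 2.08% of all 30177 probe sets passed as higher and 3.97% in either direction. The 28 belonged to 17 genes, all between Thumpd3 and Vhl, with Ogg1 among them and Camk1 not. Of the 28, 17 probe sets of 14 genes were detected in all tumors, while 9 were detected in tumor 7 at most. Among those detected in all, Fancd2 was 3.49 higher in tumor 7 than the adrenal mean, Brpf1 3.16 and Vhl 2.60. Without tumor 7, tumor 8 against the adrenal tumors gave 0 of 68, beside 0.0265% of all probe sets. A contrast of 1 tumor describes that tumor, and the site and the tumor cannot be told apart in it. With 1 ganglion tumor the spread came from the adrenal tumors only. Tumor 7 had already stood out for these same genes. The counts without tumor 8 are therefore a description and no independent check.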

How the data were processed

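RNA of 8 tumors was measured on 1 Affymetrix array each. The authors deposited log2 values per probe set, already background-corrected and normalized. RMA and Partek 6.6 stand in the submitters' processing notes but gcRMA in the Methods, and the choice between them could not be settled. No further normalization was done, and the number of arrays limits the precision. No 2 arrays held identical values. In the platform annotation, 34958 probe sets name a single gene, 932 several and 9211 none, and the last 2 kinds were left out. Symbols and gene order came from the RefSeq gene table of GRCm38.p6, matched by Entrez identifier for 34754 probe sets. The build behind the array design is not stated, so only the promoter windows carry coordinates.

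The brightest probe set on average stood for a gene, and a gene was tested when at least 2 tumors had it above log2 5. Each tumor was set against the mean of the other 7, and differences of at least 1 were counted. For the site comparison, limma 3.58.1 was run under R 4.3.3 (lmFit, eBayes, Benjamini-Hochberg over all probe sets tested, threshold 0.05). Python 3.11.15, numpy 2.4.6 and pandas 2.3.3 gave all other values, and matplotlib 3.10.9 the plots. The steps were tested on simulated data. Named are all 39 listed genes, the ROSA26 transcript, unlisted genes between them and up to 10 beyond either end, partner genes, Mycn and cell type markers. These genes, lists and tests were chosen with earlier results of these data known. Alternatives were quantile normalization, other filters, other probe sets per gene, the median or the adrenal mean for comparison, other sizes, other limma settings and each tumor left out.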

Additional observations from a re-analysis of the deposited data

Results flagged for a closer look

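Over the 8 tumors, 21 of 41 measures (the levels of the 39 genes and of the ROSA26 transcript, and the median difference of the listed genes) had 1 tumor so far from its nearest neighbor that the gap, as a share of the whole range, passed Dixon's critical value. Within the 6 adrenal tumors 2 did. Chance marks about 1 in 20 groups, and neighboring genes are not independent.

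Tumor 7 was the highest in most of these cases. The gap was 0.864 of the range for Ttll3, 0.847 for Vhl, 0.831 for Prrt3, 0.830 for Brpf1, 0.804 for Arpc4 and 0.790 for Jagn1. It was 0.779 for Rpusd3, 0.758 for Fancd2, 0.743 for Emc3, 0.733 for Tada3 and 0.709 for Brk1. It was 0.674 for Lhfpl4, 0.632 for Thumpd3, 0.616 for Mtmr14, 0.585 for Camk1 and 0.571 for Creld1. The median difference of the listed genes had a gap of 0.623, at 0.64 in tumor 7 and 0.02 in the next highest, tumor 2.

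Tumor 7 was the lowest for Edem1, with a gap of 0.643, and for Setmar, with 0.571, both left of the stretch. A further Edem1 probe set, detected in all tumors, read 8.18 in tumor 7, within the 7.70 to 8.80 of the others. Il17re, inside the stretch, was lowest in tumor 4 with a gap of 0.539 (7.71, against 7.98 to 8.20 in the others). Cidec, the lipid droplet gene, was highest in tumor 6 with a gap of 0.578 over the 8 tumors and 0.674 over the adrenal ones (6.20, against 5.02 to 5.52 in the others). Its level lay under the limit of detection in every tumor. The part of the liver, adipocyte and adrenal cortex transcripts of tumor 6 was not tested. Irak2 was highest in tumor 2 among the adrenal tumors, with a gap of 0.772 (7.73, against 7.16 to 7.29).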

How the results depend on the processing

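Of 394 values recomputed under alternatives, 345 stayed within 1.5 times the count or 1 SD of the median, and 49 moved. The 96 medians of the listed genes all stayed within the SD of 0.304, which tumor 7 itself enlarges. Without tumor 7 the medians of the others ran from -0.26 to 0.17, with an SD of 0.166. In tumor 7 the count of 17 genes at least 1 above also stayed within 1.5 times under every alternative run. Any of a gene's probe sets in place of 1, an alternative added after seeing the data, gave 18. No paired analysis was possible because the tumor numbers are not shared between the sites.

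Leaving out each tumor in turn, the site comparison called 0 to 28 probe sets of the listed genes (28 without tumor 8) and 4 to 1198 of all (8 without tumor 7, 1198 without tumor 8). With the mean of the 8 tumors as the filter it called 2 of all probe sets, and with 1 probe set per gene 3. Without tumor 7 or without tumor 8 the ganglion group held 1 tumor, so those counts describe that tumor only. The causes were not tested.

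The other moved values were small counts. Genes above became, at a size of 0.5, 1 in tumor 1, 4 in tumors 5 and 6 and 2 in tumor 8, and at 1.5, 1 in tumor 2 and 0 in tumor 5. With the median of a gene's probe sets, tumors 2 and 5 had 1 each. Tumor 6 had 1 against the median or the adrenal mean, and 0 to 1 with a tumor left out. Genes below became, at 0.5, 7 in tumors 1 and 8, 5 in tumors 2 and 5, 13 in tumor 3, 16 in tumor 4, 2 in tumor 6 and 6 in tumor 7. At 1.5, tumors 2, 3 and 4 had 0. With the median of a gene's probe sets, tumors 1 and 2 had 0 and tumor 4 had 2. Against the median or the adrenal mean, tumor 1 had 2 and tumors 2 and 4 had 0. Quantile normalization gave 1 in tumor 2. With a tumor left out, counts below ran from 1 to 2 in tumor 1, 0 to 3 in tumor 2 (3 without tumor 1) and 0 to 1 in tumor 4, and without tumor 7 they were 2, 0 and 0. The longest run of listed neighbors in tumor 7 grew to 11 with the median of a gene's probe sets or a size of 0.5. At 0.5 it was 1 in tumors 1 and 8 and 2 in tumor 6, at 1.5 it was 0 in tumor 5, and against the median it was 1 in tumor 6.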
